A study of Mus musculus with 9 samples.

Results

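The genes described here are 51 genes for enzymes that place or remove methyl and acetyl groups on histones, measured in mouse T cells cultured under conditions that induce T helper 17 (Th17) cells. The members were taken as a list of gene symbols, chosen with earlier results of these data known. Of the 51, 48 had a probe set that carries that symbol alone. The probe set of Kdm2b also carries a second symbol and was left out, and Suv39h1 and Suv39h2 were not analysed here. Where a gene had several probe sets the brightest on average was taken, and Kdm6b and Hdac11 were the members with more than 1. The 48 genes were compared within a table of 22180 genes.

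Naive CD4 T cells (CD4+ CD25- CD44 low CD62L high) were sorted from mouse spleen after B cell depletion and cultured for 60 h on antibodies against CD3 and CD28, with TGF-β1 at 1 ng/ml, IL-6 at 30 µg/ml as written in the labels, and antibodies that block IL-4 and IFN-γ. The cells were SRG3-deficient (SRG3 cKO, 3 arrays), RORγt-deficient (RORγt KO, 3 arrays) or wild type (WT, 3 arrays). Smarcc1 encodes SRG3, a scaffold protein of Swi/Snf complexes, which move nucleosomes, and RORγt is the nuclear receptor that drives the Th17 programme. The labels describe the arrays within a genotype as biological replicates but name no mouse or culture for them. The spread behind each p-value is therefore that of the arrays, which may be technical in part. The alleles, the Cre driver of the conditional knockout, the strain and the age of the mice are not given in the sources used here.

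Histone methylation has different partners according to the residue. Methylation of H3K4 and H3K36 accompanies active transcription, while that of H3K9 and H3K27 accompanies repression. Demethylases oppose methylation at these residues. Acetyltransferases such as those encoded by Ep300 and Crebbp open chromatin at enhancers and promoters, and histone deacetylases (HDACs) and sirtuins reverse the mark. In CD4 T cells the Polycomb repressive complex PRC2, which methylates H3K27, helps keep genes of alternative helper fates silent, and remodellers of the Swi/Snf type oppose Polycomb repression at many genes. The comparisons show whether the RNA of these enzymes differed when either SRG3 or RORγt was missing.

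The labels of the SRG3 arrays were checked with Smarcc1, whose log2 intensity was 8.47, 8.79 and 8.62 in SRG3 cKO arrays, 10.12, 10.04 and 10.19 in RORγt KO arrays, and 10.13, 10.32 and 10.39 in WT arrays (log2 change in SRG3 cKO against WT -1.65, SE 0.09, limma adjusted p = 0.000207). The T cell genes Cd4 and Cd3e averaged 11.33 and 11.49 over all arrays, far above the median of all values (7.13), and Il17a, the defining Th17 cytokine gene, lay between 10.09 and 11.14 in the WT arrays. Both measured NK markers and 4 of 5 myeloid markers averaged below that median, while the B cell markers lay between 7.09 and 7.61 and Cd8b1 was at 8.55. None of the markers of other cell types passed the test in any comparison. The summed linear signal of the 5 myeloid markers was 664 to 690 in SRG3 cKO arrays, 666 to 719 in RORγt KO arrays and 651 to 652 in WT arrays, and the part of such cells in the differences below was not tested. In bulk samples, fewer cells of a type and less RNA per cell cannot be told apart. On the first principal component, which held 28.8% of the variance, SRG3 cKO array 1, RORγt KO array 3 and WT array 1 stood apart from the other arrays of their genotypes.

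None of the 48 enzyme genes changed in SRG3 cKO against WT cells, in RORγt KO against WT cells or between the 2 knockouts. A gene is said to change where limma's p-value, adjusted over all 22180 genes by the Benjamini-Hochberg method, is below 0.05. The fit behind these calls leaves out the array number. With that number as a block, Ezh1 passed in SRG3 cKO against WT (limma adjusted p = 0.0324), as described below. Over all genes, 0.523% passed in SRG3 cKO against WT, 1.04% in RORγt KO against WT and 1.28% in SRG3 cKO against RORγt KO, so that a list of 48 genes at the background rate would hold few calls or none. At an unadjusted p below 0.05 stood 6 members in SRG3 cKO against WT (11.2% of all genes), 7 in RORγt KO against WT (12.7%) and 8 between the knockouts (11.1%), which are 12.5%, 14.6% and 16.7% of the members. The lowest adjusted p of any member was 0.113 (Ehmt2, SRG3 cKO against WT), 0.119 (Hdac4, RORγt KO against WT) and 0.164 (Eed, SRG3 cKO against RORγt KO).

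The absence of calls came with narrow intervals. Some members had identical values in several arrays, as given with the processing, so their spread may be understated. The 95% confidence interval of the log2 change lay within 0.5 of zero, that is within 1.41-fold, for 47 of 48 members in SRG3 cKO against WT (97.9% of all genes), for all 48 in RORγt KO against WT (97.5%) and for 47 between the knockouts (97.8%). The exception in both cases was Kat6b, with intervals of -0.06 to 0.55 and -0.08 to 0.53. It lay within 0.25, or 1.19-fold, for 38, 36 and 34 members in these comparisons (77.4%, 76.5% and 78.0% of all genes). The median size of the log2 change was 0.04 among the members and 0.05 over all genes in SRG3 cKO against WT, 0.06 and 0.05 in RORγt KO against WT, and 0.05 and 0.05 between the knockouts. Changes ran from -0.09 to 0.32, from -0.18 to 0.23 and from -0.16 to 0.23. For comparison, the log2 changes of Smarcc1 above and of Il17a (-2.19 in SRG3 cKO and -3.85 in RORγt KO against WT) were far outside these ranges.

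**Figure D1:**
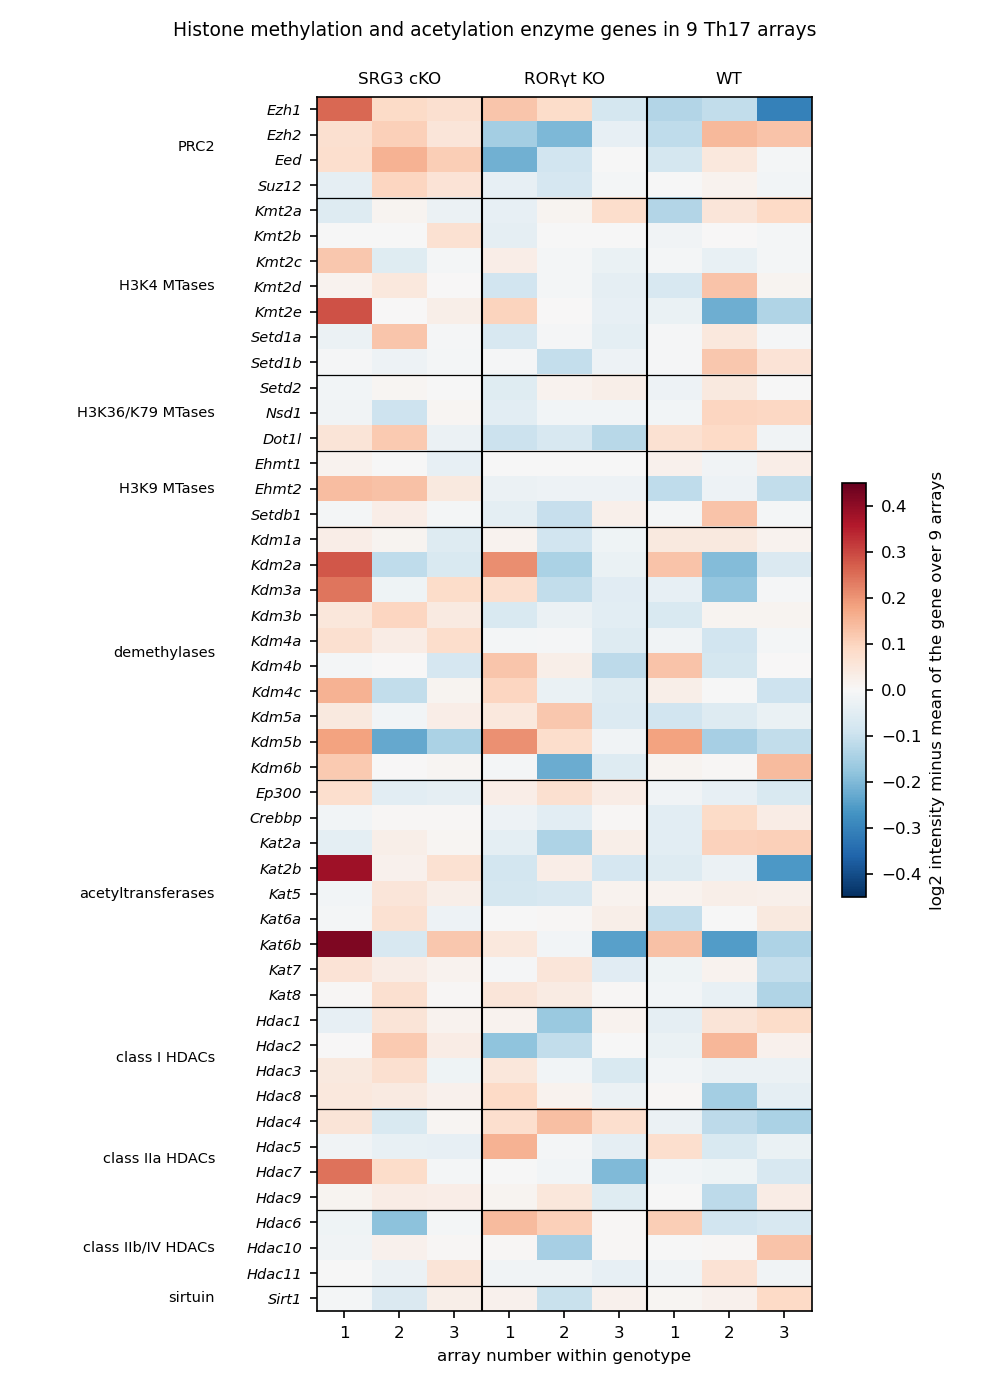
Colour shows the log2 intensity of each of the 48 genes (rows, grouped by role) in each of the 9 arrays (columns), less the mean of that gene over the 9 arrays. Most cells are pale; Ezh1 is lower in the 3 WT arrays than in the other 6, and Kdm2a and Kdm5b differ more between array 1 and the others of a genotype than between genotypes.

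The PRC2 genes held the largest single difference. Ezh1, which encodes the PRC2 methyltransferase typical of resting cells, had log2 intensities of 9.27, 9.10 and 9.08 in SRG3 cKO arrays, 9.13, 9.09 and 8.93 in RORγt KO arrays, and 8.88, 8.90 and 8.71 in WT arrays. All 6 knockout arrays lay above all 3 WT arrays. The log2 change was 0.32 in SRG3 cKO against WT (SE 0.08, 95% interval 0.15 to 0.49, adjusted p = 0.14) and 0.23 in RORγt KO against WT (SE 0.08, 0.06 to 0.39, adjusted p = 0.253). These comparisons share the WT arrays. Arrays that carry the same number in SRG3 cKO and WT deviated together, and with the number as a block Ezh1 passed in SRG3 cKO against WT (adjusted p = 0.0324, with 0.879% of all genes called). It was the only member that did so, and with the block and without the RORγt KO arrays it did not pass (adjusted p = 0.114, an alternative added after seeing the data). Over all alternatives the change lay between 0.26 and 0.36.

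Ezh2, the PRC2 methyltransferase of dividing cells, was at 11.27, 11.31 and 11.26 in SRG3 cKO arrays, 11.05, 11.00 and 11.16 in RORγt KO arrays, and 11.09, 11.35 and 11.33 in WT arrays. The SRG3 cKO and WT values overlapped (log2 change 0.02, SE 0.07, adjusted p = 0.931), and RORγt KO lay at -0.18 against WT (SE 0.07, 95% interval -0.34 to -0.02, adjusted p = 0.325). WT array 1 was as low as the RORγt KO arrays, and without it the change in RORγt KO against WT was -0.27 (adjusted p = 0.0525). Eed, whose product binds methylated H3K27 and activates the enzyme, was at 10.28, 10.35 and 10.31 in SRG3 cKO arrays, 9.98, 10.11 and 10.20 in RORγt KO arrays, and 10.12, 10.25 and 10.19 in WT arrays. Each SRG3 cKO array was above each WT array, by a mean of 0.13 (95% interval -0.00 to 0.26, adjusted p = 0.46), and RORγt KO against WT was at -0.09 (-0.22 to 0.04). The fourth PRC2 gene, Suz12, lay at 0.04 and -0.04.

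The 7 genes for H3K4 methyltransferases or related SET proteins were nearly level. In SRG3 cKO against WT their log2 changes ran from -0.07 (Setd1b) to 0.23 (Kmt2e), and in RORγt KO against WT from -0.10 (Setd1b) to 0.15 (Kmt2e). Kmt2e, for a SET domain protein that binds methylated H3K4 and is not known as an active methyltransferase, was at 10.96, 10.67 and 10.70 in SRG3 cKO arrays, 10.77, 10.67 and 10.63 in RORγt KO arrays, and 10.64, 10.45 and 10.54 in WT arrays. The SRG3 cKO arrays lay above the WT arrays, though array 1 was well above the others of its genotype (change 0.23, SE 0.08, 95% interval 0.05 to 0.41, adjusted p = 0.317, or 0.0757 with the block). Setd1b, a catalytic subunit of a complex that methylates H3K4 at promoters, was at 8.19, 8.17 and 8.19 in SRG3 cKO arrays, 8.19, 8.09 and 8.17 in RORγt KO arrays, and 8.19, 8.32 and 8.26 in WT arrays. Its groups met at the value of WT array 1, and neither change passed (adjusted p = 0.599 and 0.369). Kmt2a (MLL1), known to maintain gene expression in memory T helper cells, was at 9.62, 9.69 and 9.65 in SRG3 cKO arrays, 9.64, 9.69 and 9.76 in RORγt KO arrays, and 9.55, 9.73 and 9.77 in WT arrays. The knockout values lay within the WT range (changes -0.03 and 0.02, SE 0.06, adjusted p = 0.9 and 0.948). Kmt2b, Kmt2c, Kmt2d and Setd1a lay between -0.07 and 0.03 in both comparisons.

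Among the genes for methyltransferases of H3K36 and H3K79, Dot1l differed in RORγt KO arrays. Dot1l encodes the H3K79 methyltransferase, which limits Th1 gene expression in CD4 T cells. Its level was 10.49, 10.55 and 10.40 in SRG3 cKO arrays, 10.33, 10.36 and 10.31 in RORγt KO arrays, and 10.50, 10.52 and 10.42 in WT arrays. The 3 RORγt KO arrays were below all 6 others (change against WT -0.15, SE 0.05, 95% interval -0.25 to -0.04, adjusted p = 0.236), while SRG3 cKO lay at 0.00 (-0.10 to 0.11) against WT. Nsd1, for an H3K36 methyltransferase, was at 10.05, 9.97 and 10.07 in SRG3 cKO arrays, 10.02, 10.05 and 10.05 in RORγt KO arrays, and 10.05, 10.16 and 10.16 in WT arrays. WT array 1 lay within the knockout values, and the changes were -0.09 and -0.08 (adjusted p = 0.488 and 0.484). Setd2, the enzyme for H3K36 trimethylation, was at -0.01 in both comparisons.

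Of the genes for H3K9 methyltransferases, Ehmt2 (G9a), an enzyme of H3K9 dimethylation with roles in helper T cell differentiation, was at 9.30, 9.29 and 9.21 in SRG3 cKO arrays, 9.13, 9.14 and 9.14 in RORγt KO arrays, and 9.05, 9.14 and 9.05 in WT arrays. Every SRG3 cKO array lay above every other array. The change was 0.19 in SRG3 cKO against WT (SE 0.04, 95% interval 0.09 to 0.28, adjusted p = 0.113, or 0.0928 with the block) and 0.06 in RORγt KO against WT (-0.04 to 0.15). Its partner gene Ehmt1 lay at -0.02 (-0.09 to 0.06) and -0.01 (-0.09 to 0.06). Setdb1, which represses Th1 genes in Th2 cells, had levels of 9.14, 9.18 and 9.14 in SRG3 cKO arrays, 9.11, 9.05 and 9.17 in RORγt KO arrays, and 9.14, 9.28 and 9.14 in WT arrays. These values overlapped throughout, with changes of -0.03 and -0.08 (SE 0.05, adjusted p = 0.851 and 0.574).

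**Figure D2:**
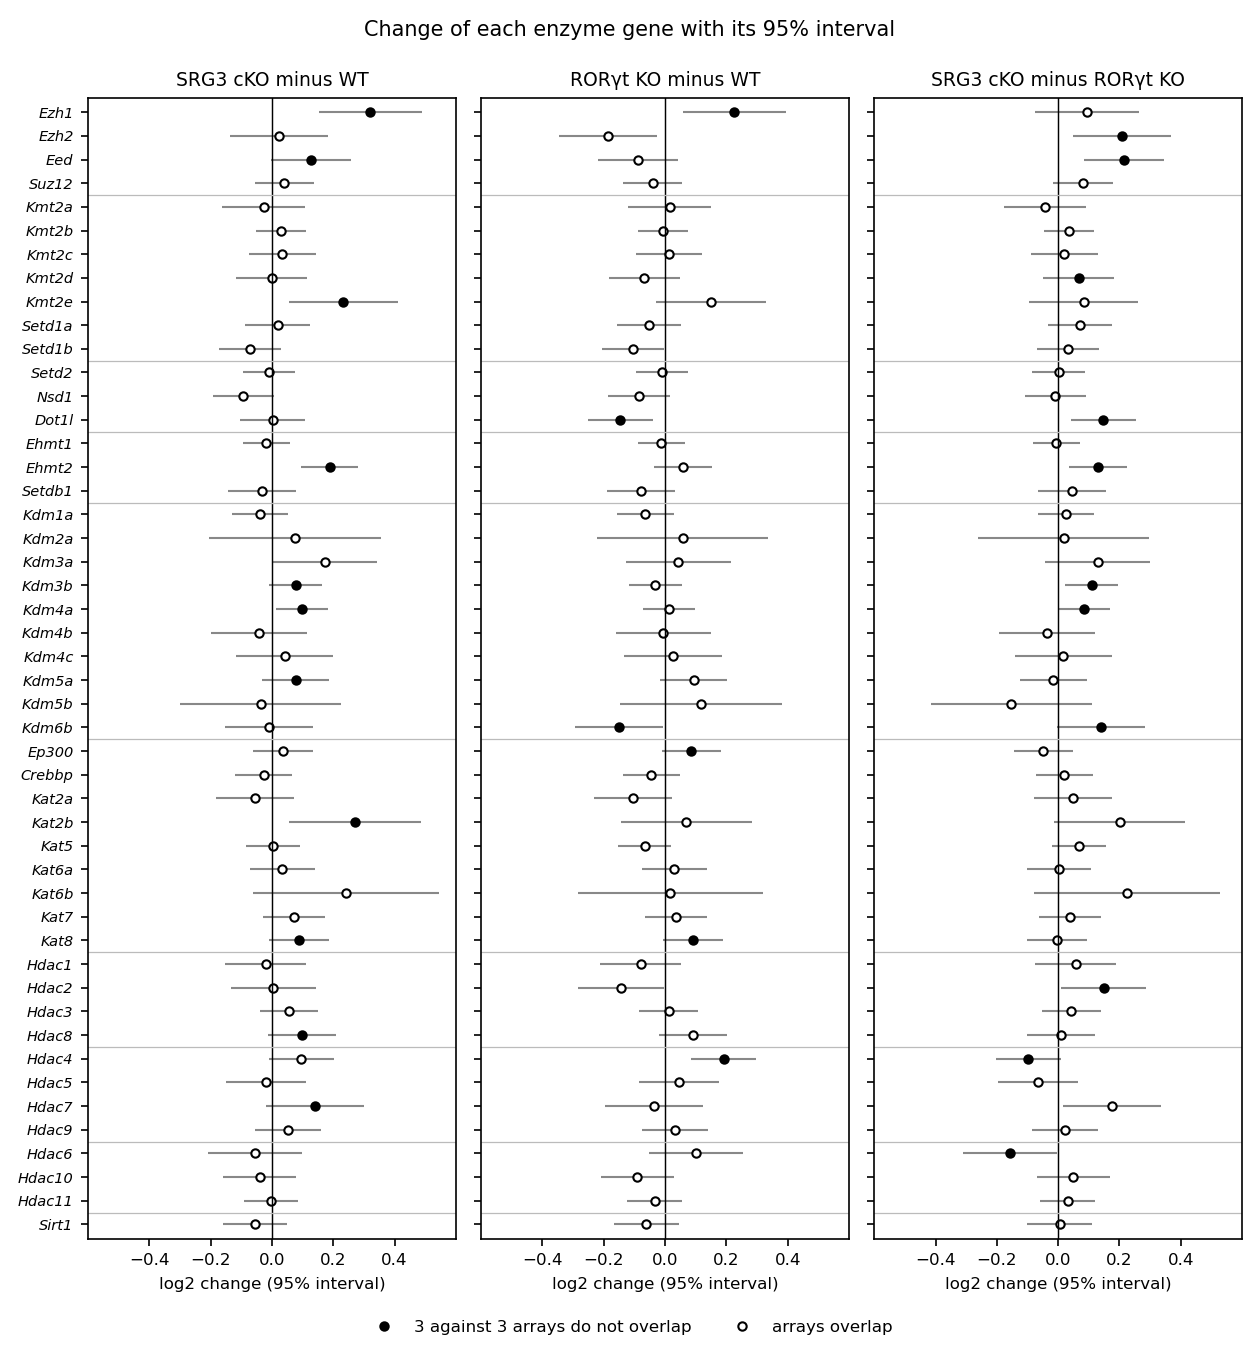
Points give the log2 change of each of the 48 genes and bars its 95% interval in the 3 comparisons; filled points mark genes whose 3 arrays in 1 group all lie on the same side of the 3 in the other, and grey lines separate roles. Nearly all intervals lie within 0.5 of zero, and those of Ezh1 and Ehmt2 in SRG3 cKO against WT lie farthest from zero relative to their width.

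The 10 measured demethylase genes ran from -0.04 to 0.17 in SRG3 cKO against WT and from -0.15 to 0.12 in RORγt KO against WT. Kdm6b (JMJD3), the H3K27 demethylase known to act in Th17 differentiation, was at 9.49, 9.38 and 9.39 in SRG3 cKO arrays, 9.37, 9.15 and 9.32 in RORγt KO arrays, and 9.39, 9.38 and 9.52 in WT arrays. The RORγt KO arrays were below the WT arrays, though by little for array 1 (change -0.15, SE 0.06, 95% interval -0.29 to -0.01, adjusted p = 0.37), and SRG3 cKO was at -0.01 (-0.15 to 0.13). A second, dimmer probe set of Kdm6b lay at 0.05 in SRG3 cKO and -0.06 in RORγt KO against WT. Kdm3a, for an H3K9 demethylase induced by hypoxia, was at 0.17 in SRG3 cKO (0.00 to 0.34, adjusted p = 0.441) and 0.04 in RORγt KO. Kdm3b, Kdm4a and Kdm5a lay above WT in all 3 SRG3 cKO arrays by means of 0.08, 0.10 and 0.08 (adjusted p = 0.497, 0.391 and 0.604). Kdm5b, an H3K4 demethylase gene, was at 9.66, 9.25 and 9.33 in SRG3 cKO arrays, 9.68, 9.56 and 9.46 in RORγt KO arrays, and 9.66, 9.33 and 9.37 in WT arrays. Array 1 was the highest in each genotype, and its changes were -0.04 and 0.12 (SE 0.12, adjusted p = 0.936 and 0.742, pooled SD 0.175).

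Of the 9 acetyltransferase genes, those for the PCAF and MORF enzymes had the largest log2 changes in SRG3 cKO against WT. Kat2b (PCAF) was at 8.91, 8.54 and 8.59 in SRG3 cKO arrays, 8.44, 8.55 and 8.45 in RORγt KO arrays, and 8.47, 8.50 and 8.27 in WT arrays. The SRG3 cKO arrays did not overlap WT, and array 1 was well above the others of its genotype (change 0.27, SE 0.10, 95% interval 0.06 to 0.49, adjusted p = 0.331). Kat6b (MORF) was at 8.97, 8.48 and 8.67 in SRG3 cKO arrays, 8.60, 8.54 and 8.31 in RORγt KO arrays, and 8.68, 8.30 and 8.41 in WT arrays. Here all 3 genotypes overlapped, with the widest pooled SD of any member (0.203), and the change in SRG3 cKO against WT was 0.24 (SE 0.14, adjusted p = 0.55). Between arrays of the same number it was 0.29, 0.18 and 0.26, all in one direction, and with the number as a block the SE was 0.083 (adjusted p = 0.255). Kat2b lay at 0.07 and Kat6b at 0.02 in RORγt KO against WT. Ep300, an acetyltransferase of enhancers, was at 10.15, 10.03 and 10.04 in SRG3 cKO arrays, 10.11, 10.15 and 10.11 in RORγt KO arrays, and 10.06, 10.04 and 10.01 in WT arrays. The RORγt KO arrays lay above the WT arrays by 0.09 (-0.01 to 0.18, adjusted p = 0.461), and SRG3 cKO against WT was at 0.04 (adjusted p = 0.799). Its close relative Crebbp was at 10.57, 10.59 and 10.59 in SRG3 cKO arrays, 10.57, 10.54 and 10.59 in RORγt KO arrays, and 10.54, 10.67 and 10.62 in WT arrays. The groups overlapped, with changes of -0.03 (-0.12 to 0.07, adjusted p = 0.859) and -0.05 (-0.14 to 0.05, adjusted p = 0.708). Kat2a (GCN5) was at 8.97, 9.04 and 9.02 in SRG3 cKO arrays, 8.97, 8.87 and 9.04 in RORγt KO arrays, and 8.96, 9.11 and 9.12 in WT arrays. WT array 1 was again the low one, and the changes were -0.06 and -0.11 (SE 0.06, adjusted p = 0.757 and 0.489). Kat8 lay at 0.09 in both comparisons, and Kat5, Kat6a and Kat7 between -0.07 and 0.07.

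None of the 4 genes for class I deacetylases, the main nuclear enzymes, passed, and their log2 changes in SRG3 cKO against WT ran from -0.02 (Hdac1) to 0.10 (Hdac8). Hdac1 was at 11.61, 11.71 and 11.66 in SRG3 cKO arrays, 11.66, 11.48 and 11.66 in RORγt KO arrays, and 11.61, 11.71 and 11.73 in WT arrays. The ranges overlapped, and the changes were -0.02 (-0.15 to 0.11, adjusted p = 0.928) and -0.08 (-0.21 to 0.05, adjusted p = 0.635). Hdac3, the catalytic subunit of NCoR complexes, was at 10.09, 10.11 and 10.02 in SRG3 cKO arrays, 10.09, 10.03 and 9.97 in RORγt KO arrays, and 10.03, 10.01 and 10.01 in WT arrays. Its changes were 0.05 (-0.04 to 0.15, adjusted p = 0.683) and 0.01 (-0.08 to 0.11, adjusted p = 0.941), with overlapping arrays in both. Hdac2 was at 10.29, 10.41 and 10.33 in SRG3 cKO arrays, 10.11, 10.18 and 10.29 in RORγt KO arrays, and 10.26, 10.44 and 10.31 in WT arrays. RORγt KO array 3 reached into the WT range (change -0.14, SE 0.06, adjusted p = 0.377). Hdac8 was at 8.16, 8.15 and 8.13 in SRG3 cKO arrays, 8.20, 8.12 and 8.08 in RORγt KO arrays, and 8.11, 7.95 and 8.07 in WT arrays. All 3 SRG3 cKO arrays lay above all 3 WT arrays (change 0.10, SE 0.05, adjusted p = 0.501), while the RORγt KO arrays overlapped WT (0.09, adjusted p = 0.501).

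The class IIa deacetylases are regulated by export from the nucleus. Hdac4 was at 9.34, 9.21 and 9.29 in SRG3 cKO arrays, 9.35, 9.41 and 9.35 in RORγt KO arrays, and 9.25, 9.16 and 9.14 in WT arrays. Each RORγt KO array was above each WT array and each SRG3 cKO array (change against WT 0.19, SE 0.05, 95% interval 0.09 to 0.30, adjusted p = 0.119), and SRG3 cKO against WT was at 0.09 (-0.01 to 0.20). Hdac7, abundant in thymocytes, was at 10.21, 10.05 and 9.96 in SRG3 cKO arrays, 9.96, 9.95 and 9.77 in RORγt KO arrays, and 9.95, 9.95 and 9.89 in WT arrays. SRG3 cKO array 3 was only just above the highest WT array (change 0.14, SE 0.07, adjusted p = 0.51), and RORγt KO lay at -0.04. Hdac5 (-0.02 and 0.04) and Hdac9 (0.05 and 0.03) did not pass, and the level of Hdac9 (6.25) lay near the 25th percentile of all values (6.12).

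Of the other deacetylases, Hdac6, the cytoplasmic tubulin deacetylase, was at 8.44, 8.28 and 8.45 in SRG3 cKO arrays, 8.61, 8.57 and 8.47 in RORγt KO arrays, and 8.57, 8.38 and 8.39 in WT arrays. Neither knockout separated from WT (changes -0.06 and 0.10, adjusted p = 0.809 and 0.599). Hdac10 lay at -0.04 and -0.09, and Hdac11 at -0.00 and -0.03, with -0.04 and -0.05 for its second probe set. Sirt1, the NAD-dependent deacetylase known to act on RORγt protein, was at 8.63, 8.57 and 8.66 in SRG3 cKO arrays, 8.66, 8.54 and 8.66 in RORγt KO arrays, and 8.65, 8.66 and 8.73 in WT arrays. The genotypes overlapped, with changes of -0.06 (-0.16 to 0.05, adjusted p = 0.712) and -0.06 (-0.17 to 0.04, adjusted p = 0.648).

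**Figure D3:**
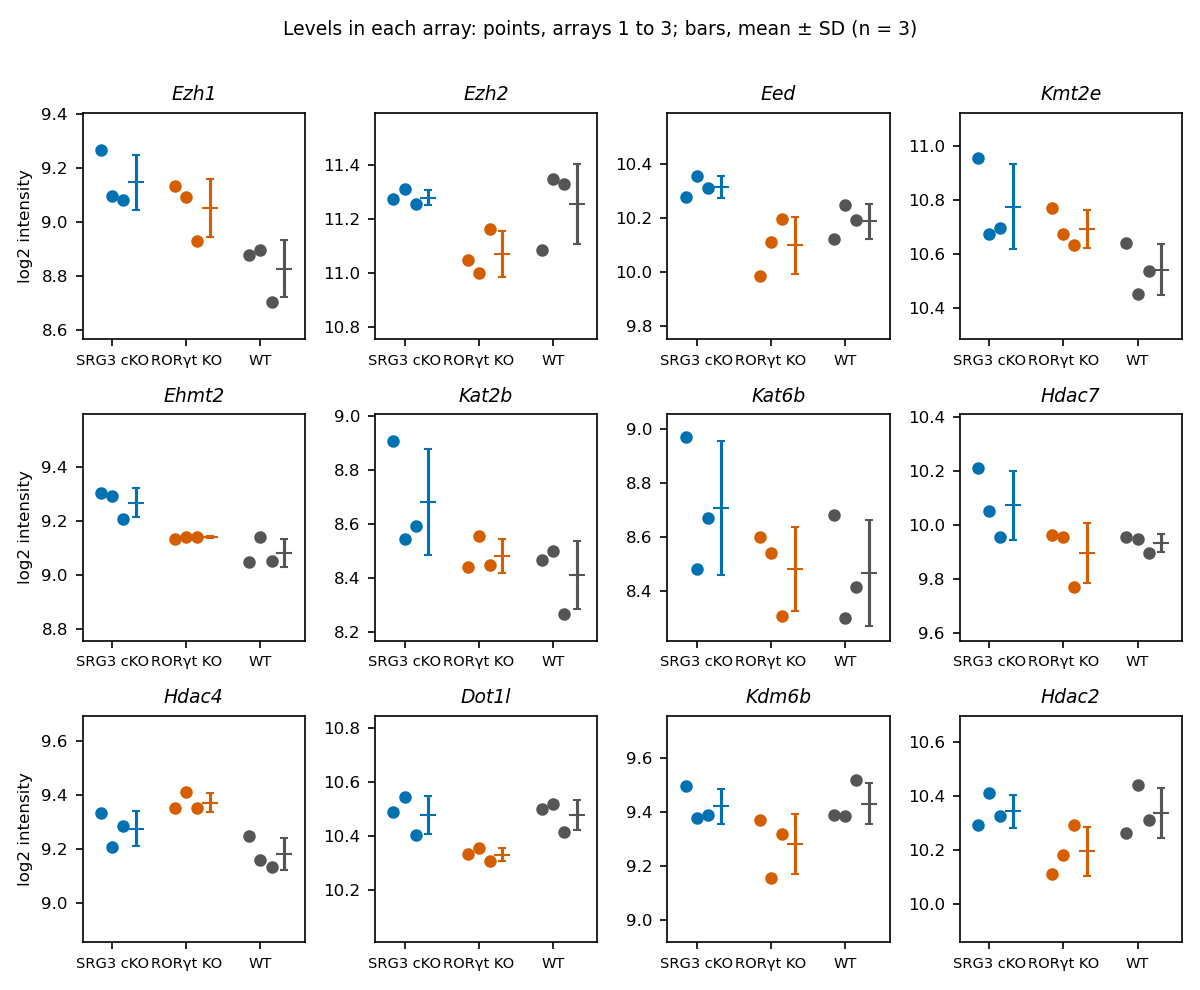
Each point is the log2 intensity of 1 array for 12 of the enzyme genes, with the mean ± SD of the 3 arrays of a genotype beside it; all panels span the same range on the log2 scale. Ehmt2 and Dot1l show tight groups in RORγt KO arrays, though Ehmt2 has an identical value in arrays 2 and 3. SRG3 cKO array 1 is the highest of its genotype for Ezh1, Kmt2e, Kat2b, Kat6b and Hdac7.

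In the direct comparison, SRG3 cKO over RORγt KO, 37 of 48 members had a log2 change above 0 (77.1%, against 49.3% of all genes). Against WT this held for 29 members in SRG3 cKO (60.4%, against 46.4%) and 23 in RORγt KO (47.9%, against 48.4%). In the direct comparison the median over the members was 0.04, against -0.00 over all genes. The other genes of histone and DNA modification, given below, leaned the same way there (71 of 96 above 0). All 4 PRC2 genes lay higher in SRG3 cKO than in RORγt KO cells, by 0.22 for Eed (95% interval 0.09 to 0.35, adjusted p = 0.164), 0.21 for Ezh2 (0.05 to 0.37, adjusted p = 0.292), 0.09 for Ezh1 and 0.08 for Suz12. The 4 class I deacetylase genes also all lay higher there. The largest change between the knockouts was that of Kat6b (0.23), whose wide interval is given above. None of these genes passed. Dot1l was at 0.15 (0.04 to 0.25, adjusted p = 0.248), Hdac2 at 0.15 (0.01 to 0.29, adjusted p = 0.413), Ehmt2 at 0.13 (0.04 to 0.22, adjusted p = 0.263) and Hdac7 at 0.18 (0.02 to 0.34, adjusted p = 0.399). Hdac6 at -0.16 (-0.31 to -0.00, adjusted p = 0.443) and Kdm5b at -0.15 (-0.42 to 0.11) had the lowest values. Kdm6b was at 0.14 (-0.00 to 0.28, adjusted p = 0.47).

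The count of members whose groups do not overlap leaned upwards in SRG3 cKO cells, as did that of the other genes of histone and DNA modification given below. Of the 96 measured there, 15 lay above WT in SRG3 cKO without overlap (15.6%, against 7.04% of all genes). Below WT lay 4 (4.17%, against 6.56%). All 3 SRG3 cKO arrays exceeded all 3 WT arrays in 11 of 48 members (22.9%, against 7.04% of all genes), namely Ezh1, Eed, Kmt2e, Ehmt2, Kdm3b, Kdm4a, Kdm5a, Kat2b, Kat8, Hdac8 and Hdac7. The opposite held for 0 of 48, against 6.56% of all genes. In RORγt KO against WT there were 4 higher (Ezh1, Ep300, Kat8 and Hdac4, 8.33% against 6.9%) and 2 lower (Dot1l and Kdm6b, 4.17% against 7.35%). Between the knockouts 9 were higher in SRG3 cKO (18.8% against 7.79%) and 2 lower (4.17% against 6.82%). Among the genes above the 25th percentile of intensity, where all 48 members lie, the background in SRG3 cKO over WT was 8.03% higher and 7.05% lower. A count without overlap can only stay or rise when an array is left out. The counts that follow therefore cannot show whether the lean rests on 1 array, and are given beside the shares of all genes. Leaving out 1 of the 6 SRG3 cKO and WT arrays gave 13 or 14 members higher (27.1% to 29.2%, against 10.2% to 14.1% of all genes). It gave 0 to 6 lower (0.0% to 12.5%, against 10.4% to 14.9% of all genes), the most without WT array 1. In RORγt KO against WT the count moved more, to 8 higher and 13 lower without WT array 1 (16.7% and 27.1%, against 14.3% and 16.4% of all genes). Without RORγt KO array 3 it was 8 of each (16.7%, against 13.1% higher and 14.1% lower of all genes). The lower count was 3 or 4 when any other single array was left out (6.25% or 8.33%, against 10.7% to 11.4% of all genes). Between the knockouts it was 10 to 13 higher (20.8% to 27.1%, against 11.7% to 13.3% of all genes). There 2 to 5 were lower (4.17% to 10.4%, against 10.8% to 12.4% of all genes), with 5 without SRG3 cKO array 1 or RORγt KO array 3. The members were chosen as a list and are not independent of each other, so the share is a description, and the median log2 change behind it was 0.03, against -0.01 over all genes.

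**Figure D4:**
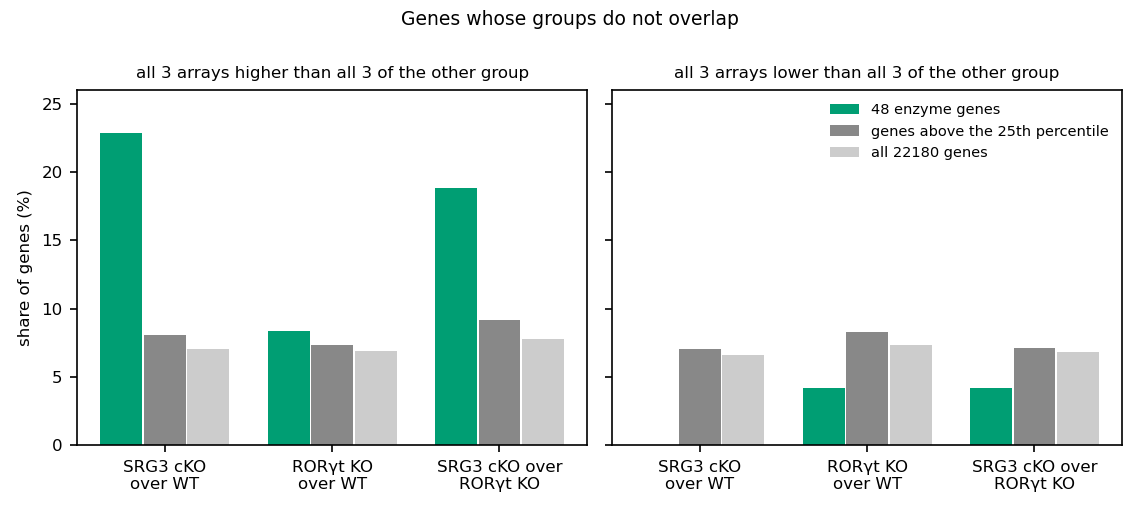
Bars give the share of genes, in percent, whose 3 arrays in 1 genotype all lie above (left) or below (right) the 3 arrays of the other, for the 48 enzyme genes, for genes above the 25th percentile of intensity and for all 22180 genes. The enzyme genes reach 22.9% for SRG3 cKO above WT and 0 for SRG3 cKO below WT, against 7.04% and 6.56% of all genes.

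Part of the spread within genotypes followed the number of the array. Array 1 was the highest of its genotype in all 3 genotypes for 9 members (18.8%, against 9.74% of all genes), namely Kmt2c, Kmt2e, Kdm2a, Kdm4c, Kdm5b, Kat6b, Hdac8, Hdac5 and Hdac7. It was the lowest in all 3 for 7 members (14.6%, against 7.87%), namely Eed, Kmt2a, Kmt2b, Setd1a, Setd2, Kat5 and Hdac2. Kdm2a, an H3K36 demethylase gene, shows the size of this, with 9.79, 9.39 and 9.44 in SRG3 cKO arrays, 9.72, 9.37 and 9.48 in RORγt KO arrays, and 9.64, 9.31 and 9.44 in WT arrays. Array 3 was the lowest in all 3 genotypes for 5 members (10.4%, against 6.39%), namely Ezh1, Dot1l, Kat7, Kat8 and Hdac7. It was the highest for 1 (2.08%, against 6.42%). Array 2 was the highest for 3 and the lowest for 3 (6.25% each, against 4.81% and 5.72%). The median pooled SD of the members was 0.057, and the largest were those of Kat6b (0.203), Kdm2a (0.187) and Kdm5b (0.175). What the number of an array stands for is not given in the labels, and its part in the differences between genotypes was not tested beyond the block.

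Other genes of histone and DNA modification also gave few calls. Of 106 listed (partners of PRC2, PRC1, COMPASS subunits, further methyltransferases, demethylases and acetyltransferases, corepressors, sirtuins, bromodomain readers and DNA methylation genes), 96 were measured. None changed in SRG3 cKO against WT, 1 rose in RORγt KO against WT and none changed between the knockouts. At an unadjusted p below 0.05 stood 17, 19 and 13 of them, which are 17.7%, 19.8% and 13.5% of the 96, against 11.2%, 12.7% and 11.1% of all genes. Of the 96, 64 lay below 0 in RORγt KO against WT (66.7%, against 51.6% of all genes), with a median of -0.03 and 10 without overlap below WT (10.4%, against 7.35%). The 2 lists were not tested against each other. The riser was Nsd3, for an H3K36 methyltransferase, at 9.90, 10.04 and 9.84 in RORγt KO arrays and 9.59, 9.64 and 9.55 in WT arrays (change 0.33, SE 0.07, adjusted p = 0.05, just under the threshold). It did not pass in 12 of 18 alternatives (adjusted p 0.0361 to 0.187 over all 18), among them the fits without each of the WT and RORγt KO arrays. In SRG3 cKO arrays Nsd3 was at 10.03, 9.83 and 9.87 (change against WT 0.31, adjusted p = 0.0933). With the replicate block 2 of the 96 passed in SRG3 cKO against WT. Pcgf5, a PRC1 subunit gene, was at 10.59, 10.38 and 10.42 in SRG3 cKO arrays and 10.21, 9.87 and 9.77 in WT arrays (change 0.51, adjusted p = 0.113, or 0.0324 with the block). Tet2, whose product oxidizes methylated DNA, was at 9.87, 9.53 and 9.64 in SRG3 cKO arrays and 9.53, 9.29 and 9.28 in WT arrays (change 0.32, adjusted p = 0.241, or 0.0452 with the block). With the block and without the RORγt KO arrays neither passed (adjusted p = 0.0808 for Pcgf5 and 0.093 for Tet2). The 23 measured genes of 25 listed for cell division, set beside the members because Ezh2 is known to follow division, had median changes of -0.04 in SRG3 cKO and -0.08 in RORγt KO against WT, with none past the threshold. In SRG3 cKO 18 of these 23 lay below their WT mean (78.3%, against 53.6% of all genes) and in RORγt KO 20 (87.0%, against 51.6%). At an unadjusted p below 0.05 stood 2 in SRG3 cKO (8.7%, against 11.2%) and 8 in RORγt KO (34.8%, against 12.7%), and 6 (26.1%, against 6.56%) and 10 (43.5%, against 7.35%) lay below WT without overlap. Between the knockouts 17 of the cell division genes lay above 0 in SRG3 cKO and 6 below. There 5 were higher without overlap (21.7%, against 7.79%) and 2 lower (8.7%, against 6.82%). The part of these genes in the value of Ezh2 was not tested.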

How the data were processed

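RNA of 9 Th17 cultures was hybridized to GeneChip arrays, with 3 arrays per genotype. The values are log2 probe set intensities as deposited by the authors in the series matrix; the background correction, summarization and normalization are not given in the sources used here. Array medians were 7.12 to 7.14. Some deposited values were identical in several arrays. Ehmt1 was at 8.911318 in all 3 RORγt KO arrays, and Ehmt2 at 9.140806 in RORγt KO arrays 2 and 3 and WT array 2. The reason for such ties is not known here, and the SD of these genes may understate the spread. Per the platform annotation, 1 symbol was attached to 23521 of the 41345 probe sets, several to 1814 and none to 16010, and only the first kind was used. Current symbols came from RefSeq (GRCm38.p6) through the gene ID, which 23328 probe sets shared with it, giving 22180 genes. No sample column was left unused (0).

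Differences between genotypes were tested by limma 3.58.1 (R 4.3.3) in a single fit of all 9 arrays, without batch terms, and p-values were adjusted per comparison over all genes (Benjamini-Hochberg, threshold 0.05). The number of arrays limits the precision. The fit was tested on simulated data with independent noise, without an effect of the array number and without tied values. That test does not cover these features of the data. Same-numbered arrays of SRG3 cKO and WT correlated in their deviations from the group means (0.287, 0.186 and 0.116). The main fit does not use this pairing, and the block value is given where it changes a call. The block fit takes all 9 arrays, so it applies the number to the RORγt KO arrays too. The same correlations were 0.215, -0.00527 and 0.186 for RORγt KO and WT, and 0.223, -0.00544 and 0.137 for the knockouts. In both of these only the arrays numbered 2 lacked a positive correlation, so the pairing was not limited to SRG3 cKO and WT. Members, lists, tests and alternatives were chosen with earlier results of these data known. Values in every array and changes against WT are given for members past the threshold in any comparison, also with the block. They are also given for the 5 largest changes in each direction in each comparison with WT. A set of enzymes with known roles in T cells is treated in the same way. Eed, Kdm2a and Hdac8 were added after their values were seen. Most other members appear by their changes. For Kdm1a, Kdm2a, Kdm4b and Kdm4c only the range of changes of the demethylase genes is given.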

Additional observations from a re-analysis of the deposited data

How the results depend on the processing

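No member passed in any of 18 alternatives in RORγt KO against WT or between the knockouts, nor in 17 of 18 in SRG3 cKO against WT; the exception was the replicate block, with 1 (Ezh1). Leaving out each array gave 0 members in all 3 comparisons, while the number at an unadjusted p below 0.05 went from 2 without SRG3 cKO array 1 (4.17%, against 8.41% of all genes) to 11 without WT array 1 (22.9%, against 14.1%) in SRG3 cKO against WT. It went from 2 without WT array 3 (4.17%, against 9.54%) to 14 without WT array 1 (29.2%, against 16.0%) in RORγt KO against WT, and from 5 without RORγt KO array 2 (10.4%, against 8.84%) to 11 without SRG3 cKO array 1 (22.9%, against 10.2%) between the knockouts. Other genes of histone and DNA modification that passed numbered 2 in SRG3 cKO and 3 in RORγt KO against WT with the block, and 0 to 1 in both without single arrays. In RORγt KO against WT they numbered 0 with centred arrays, with the mean of probe sets, in the fit of 6 arrays and in that fit with the block, the last chosen after seeing the data. Over all genes, the calls in SRG3 cKO against WT were 116, and 195 with the block, 13 in the fit of 6 arrays, 32 in that fit with the block and 18 (without SRG3 cKO array 1) to 87 (without WT array 1) without single arrays. In RORγt KO against WT they were 230, against 374, 43, 63 and 45 (without WT array 2) to 322 (without WT array 1), and between the knockouts 283, against 368, 142, 131 and 138 (without RORγt KO array 1) to 261.

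The median log2 change of the members was 0.0264, 0.012 with quantile normalization and 0.012 to 0.036 without single arrays in SRG3 cKO against WT, and -0.021 to 0.0055 without single arrays in RORγt KO against WT. Between the knockouts it was 0.020 with quantile normalization, 0.046 with centred arrays and 0.023 to 0.051 without single arrays. Sign changes were followed for Nsd3 and for the members with values in every array, except Eed, Kdm2a and Hdac8. Members not followed could turn sign too, such as Kmt2d in SRG3 cKO against WT (-0.047 to 0.052 over all alternatives). Of the changes followed, some near zero turned sign in some alternatives, none past the threshold in either. With quantile normalization these were, in SRG3 cKO against WT, Dot1l (-0.00797) and Hdac2 (-0.0046), and between the knockouts Crebbp (-0.0065) and Sirt1 (-0.0098, and -0.0052 with array weights). Kdm6b was at 0.0205 with the mean of its probe sets in SRG3 cKO against WT, and Kmt2a at -0.0013 with array weights in RORγt KO against WT. Without single arrays the ranges in SRG3 cKO against WT were -0.0617 to 0.00491 for Crebbp, -0.0314 to 0.0391 for Dot1l, -0.00422 to 0.0576 for Ep300, -0.0608 to 0.0708 for Ezh2, -0.058 to 0.00469 for Hdac1 and -0.0335 to 0.0569 for Hdac2. They were -0.0909 to 0.00776 for Hdac6, -0.159 to 0.0673 for Kdm5b, -0.0476 to 0.0332 for Kdm6b, -0.0951 to 0.016 for Kmt2a and -0.0552 to 0.0126 for Setdb1. In RORγt KO against WT they were -0.019 to 0.0414 for Hdac3, -0.0700 to 0.0271 for Hdac7, -0.00232 to 0.114 for Kat2b, -0.0654 to 0.126 for Kat6b and -0.0527 to 0.0583 for Kmt2a. Between the knockouts they were -0.00243 to 0.089 for Hdac1, -0.00722 to 0.134 for Kmt2e, -0.0297 to 0.0211 for Nsd1, -0.0808 to 0.0343 for Nsd3 and -0.0344 to 0.0300 for Sirt1. The cause of these shifts was not tested.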
